A study of Mus musculus with 16 samples.

Results

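The genes described here are 10 components of the basement membrane that were measured in KPC1199 cells, namely the collagen IV chains Col4a1, Col4a2 and Col4a5, the collagen XVIII chain Col18a1, the laminin chains Lama3, Lama5, Lamb1 and Lamc1, nidogen Nid1 and perlecan Hspg2. They were chosen by gene symbol, which had to be present in both deposited tables of read counts, and all 10 were found, among 55738 features for untreated cells and 56980 for the other experiment. KPC1199 is a mouse pancreatic ductal adenocarcinoma line that was derived from a spontaneous tumor of a genetically engineered mouse carrying Pdx-cre and a mutant Trp53 allele, which every group shares. The line was transduced with lentiCRISPR v2 and selected with puromycin, carrying either a non-targeting guide (sgCtrL, labelled WT) or 1 guide against Sin3B (Sin3Bsg1), which encodes a scaffold of histone deacetylase complexes. Bulk RNA-seq was made from 16 libraries in 2 experiments. The untreated experiment held 2 sgCtrL and 2 Sin3Bsg1 libraries without any treatment, and the IFNγ experiment held 3 libraries for each of sgCtrL without IFNγ, Sin3Bsg1 without IFNγ, sgCtrL with IFNγ (10 ng/ml during 24 h) and Sin3Bsg1 with IFNγ at the same dose and time. Both guides stand for a selected cell population and not for several guides or clones, and neither the labels nor the RNA-seq methods say whether replicate libraries came from separate cultures, although the study says in general that its results rest on repeated experiments, so that p-values measure only the spread between these libraries, which may be technical.

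A basement membrane is a thin sheet of matrix on which epithelial cells rest. Laminins, each a trimer of an α, a β and a γ chain, polymerize on the cell surface through integrins and dystroglycan, and collagen IV forms a second network that is cross-linked by peroxidasin. Nidogen and perlecan bridge both networks, and collagen XVIII, the precursor of the fragment endostatin, lies on the stromal side. Carcinoma cells of the pancreas make part of their own basement membrane, and its loss or remodelling accompanies invasion. IFNγ induces genes through GAS elements and, by way of factors such as IRF1, through ISRE elements.

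The sequences below show the edited site on which every genotype comparison rests, and the promoter windows of collagen and perlecan genes that changed in a genotype comparison, 2 of which share a start region. The Sin3Bsg1 guide lay in coding exon 1 of Sin3b at chr8:73449982-73450001 on the plus strand of GRCm39, where its letters matched 1 site of that chromosome, and the capitals mark the PAM.
Sin3Bsg1 guide: tggctcccgctggggtcgttCGG
Promoter windows of 300 bases (from 250 before to 50 after the start) came from the RefSeq table for GRCm38.p6, which held 8 of the 10 members, and each window matched GRCm39 letter for letter at 1 place, whose coordinates are given. The capitals mark GC boxes (GGGCGG) and CCAAT boxes (CCAAT) on either strand, where CCGCCC and ATTGG are the reverse strand. The Col4a1 window lies at chr8:11362777-11363076 on the minus strand and the Col4a2 window at chr8:11362555-11362854 on the plus strand.
Col4a1: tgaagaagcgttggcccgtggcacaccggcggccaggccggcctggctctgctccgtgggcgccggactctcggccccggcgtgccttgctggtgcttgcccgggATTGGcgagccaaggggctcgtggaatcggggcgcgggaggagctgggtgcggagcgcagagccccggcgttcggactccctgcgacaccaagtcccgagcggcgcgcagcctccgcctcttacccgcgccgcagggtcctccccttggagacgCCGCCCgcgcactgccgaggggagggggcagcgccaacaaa
Col4a2: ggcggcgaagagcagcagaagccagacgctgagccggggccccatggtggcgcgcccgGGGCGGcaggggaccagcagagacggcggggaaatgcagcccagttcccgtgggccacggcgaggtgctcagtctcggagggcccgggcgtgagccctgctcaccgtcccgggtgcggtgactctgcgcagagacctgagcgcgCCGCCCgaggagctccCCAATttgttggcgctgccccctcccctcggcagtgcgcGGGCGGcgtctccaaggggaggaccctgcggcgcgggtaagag
Col4a5, the collagen IV chain with a genotype effect of 1 direction in all 3 comparisons, has its window at chrX:140258165-140258464 on the plus strand.
Col4a5: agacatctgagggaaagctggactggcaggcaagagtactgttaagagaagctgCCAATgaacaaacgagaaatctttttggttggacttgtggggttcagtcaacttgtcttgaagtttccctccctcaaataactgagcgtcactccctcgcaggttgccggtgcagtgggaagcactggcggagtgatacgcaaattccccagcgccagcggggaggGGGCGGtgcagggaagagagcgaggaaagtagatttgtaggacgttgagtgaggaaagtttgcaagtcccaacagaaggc
The more upstream of the 2 Col18a1 starts in the table has its window at chr10:77002315-77002614 on the minus strand.
Col18a1: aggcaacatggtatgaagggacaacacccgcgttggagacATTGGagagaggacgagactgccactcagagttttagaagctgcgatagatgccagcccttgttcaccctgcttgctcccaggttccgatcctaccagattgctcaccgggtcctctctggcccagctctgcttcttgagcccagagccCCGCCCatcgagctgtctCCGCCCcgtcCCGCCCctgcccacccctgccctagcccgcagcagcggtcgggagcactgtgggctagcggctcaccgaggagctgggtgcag
The perlecan window lies at chr4:137195864-137196163 on the plus strand.
Hspg2: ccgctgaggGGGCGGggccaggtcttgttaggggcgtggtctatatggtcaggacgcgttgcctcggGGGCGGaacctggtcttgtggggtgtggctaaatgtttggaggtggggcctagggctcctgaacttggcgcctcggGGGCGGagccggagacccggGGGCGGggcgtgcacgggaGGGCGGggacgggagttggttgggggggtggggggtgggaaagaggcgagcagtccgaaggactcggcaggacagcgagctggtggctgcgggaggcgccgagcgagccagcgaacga

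Col4a1 and Col4a2 are transcribed head to head, and their starts lay 21 bases apart, so that their windows shared 78 bases. The 8 members that matched had 9 windows, since Col18a1 had 2. At least 1 GC box stood in 8 of these 9, compared with 35.7% of all 32851 windows in the table. A CCAAT box stood in 6 of the 9, compared with 37.4%. The Col18a1 window that is not shown held neither. Counted by gene, each of the 8 members had a GC box in a window and 6 had a CCAAT box. None of the 9 windows of these members held TATAAA (13.6% of all windows), the GAS letters TTCNNNGAA (8.30%) or an ISRE motif, taken as GAAA, any 2 bases and GAAA (3.44%), all searched on both strands. These are matches of letters in a short window and describe no binding site. In the GENCODE annotation of GRCm39, Col4a1 (ENSMUSG00000031502) spans chr8:11248423-11362826, Col4a2 (ENSMUSG00000031503) chr8:11362471-11499287, Col4a5 (ENSMUSG00000031274) chrX:140258354-140472231, Col18a1 (ENSMUSG00000001435) chr10:76888012-77002390 and Lama3 (ENSMUSG00000024421) chr18:12466876-12717747. Lama5 (ENSMUSG00000015647) spans chr2:179818166-179867712, Lamb1 (ENSMUSG00000002900) chr12:31315030-31379658, Lamc1 (ENSMUSG00000026478) chr1:153094597-153208774, Nid1 (ENSMUSG00000005397) chr13:13612071-13686860 and Hspg2 (ENSMUSG00000028763) chr4:137196079-137298231. Their lengths in the deposited tables ran from 5595 bases for Col18a1 to 14176 bases for Hspg2.

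The libraries of the untreated experiment held 29683181 to 32311721 counts in total, and those of the IFNγ experiment 18128055 to 27056903. As a check of the guides, Sin3b lay between 83.4 and 95.6 CPM (counts scaled to the library size) in sgCtrL libraries of the untreated and without-IFNγ groups and between 34.1 and 39.4 CPM in the matching Sin3Bsg1 libraries. Its log2 fold change in Sin3Bsg1 was -1.28 untreated, -1.24 without IFNγ and -1.22 with IFNγ (edgeR adjusted p at most 5.22e-10). Irf1 rose with IFNγ by 3.51 on the log2 scale in sgCtrL and by 3.57 in Sin3Bsg1 (edgeR adjusted p at most 1.68e-18), as a check of the treatment labels. All 6 ductal epithelium markers were present, the 5 leukocyte markers were at 3 counts or fewer in every library, and 3 of 5 endothelial markers (Cdh5, Kdr and Tie1) were too. Of 6 fibroblast markers Fap and Lum were at that floor, but Pdgfra and Pdgfrb were expressed, and the summed level of the list was 99.8 to 100.1 CPM in untreated sgCtrL against 30.1 to 33.2 CPM in untreated Sin3Bsg1. The library that stood furthest from its replicates was sgCtrL with IFNγ replicate 1. Its chi-square against the other 2, as a mean over genes, was 23.3 and 19.5, compared with 4.12 between the other 2. In that library genes of at least 10000 bases lay at a median of -0.28 on the log2 scale relative to the other replicates. Of the members 3 (Lama3, Lama5 and Hspg2) are that long. Sin3Bsg1 with IFNγ was spread by length too, with such genes at 0.13 in replicate 1 and -0.15 in replicate 3. The median of the 10 members was 0.086 and -0.12 in these libraries, and the chi-square between them was 9.65.

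Levels were compared between genes on the scale of TPM, which divides by gene length. In untreated sgCtrL cells Lama5 (184 ± 0.601 TPM, SD, n = 2) and Col18a1 (183 ± 0.990 TPM) stood highest and close together, with no overlap between their libraries, followed by Lamb1 (127 ± 0.835 TPM) and Lamc1 (126 ± 2.56 TPM), which did not differ beyond their spread. Nid1 (117 ± 0.953 TPM), Col4a1 (84.6 ± 0.98 TPM), Hspg2 (60.6 ± 0.784 TPM) and Col4a2 (44.8 ± 1.01 TPM) followed in that order, each apart from its neighbour. Col4a5 (8.06 ± 0.0258 TPM) and Lama3 (1.03 ± 0.128 TPM) were the lowest. Without IFNγ in the other experiment, sgCtrL cells had Col18a1 highest (196 ± 5.25 TPM, SD, n = 3) and Nid1 next (164 ± 4.78 TPM), with Lama5 at 128 ± 3.31 TPM. With IFNγ, Nid1 led in both genotypes (136 ± 1.99 TPM in sgCtrL and 154 ± 12.7 TPM in Sin3Bsg1), and Col18a1 stood at 96.4 ± 3.79 TPM in sgCtrL and 87.7 ± 4.97 TPM in Sin3Bsg1. Summed over the 10 genes, the level was 937 ± 3.0 TPM in untreated sgCtrL and 929 ± 4.34 TPM in untreated Sin3Bsg1, and in the IFNγ experiment it was 910.4 ± 19.8 TPM in sgCtrL and 879.9 ± 2.05 TPM in Sin3Bsg1 without IFNγ against 626 ± 15.2 TPM and 656 ± 56.4 TPM with IFNγ. The tables are separate experiments, so levels of one beside the other are given as a description.

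**Figure D1:**
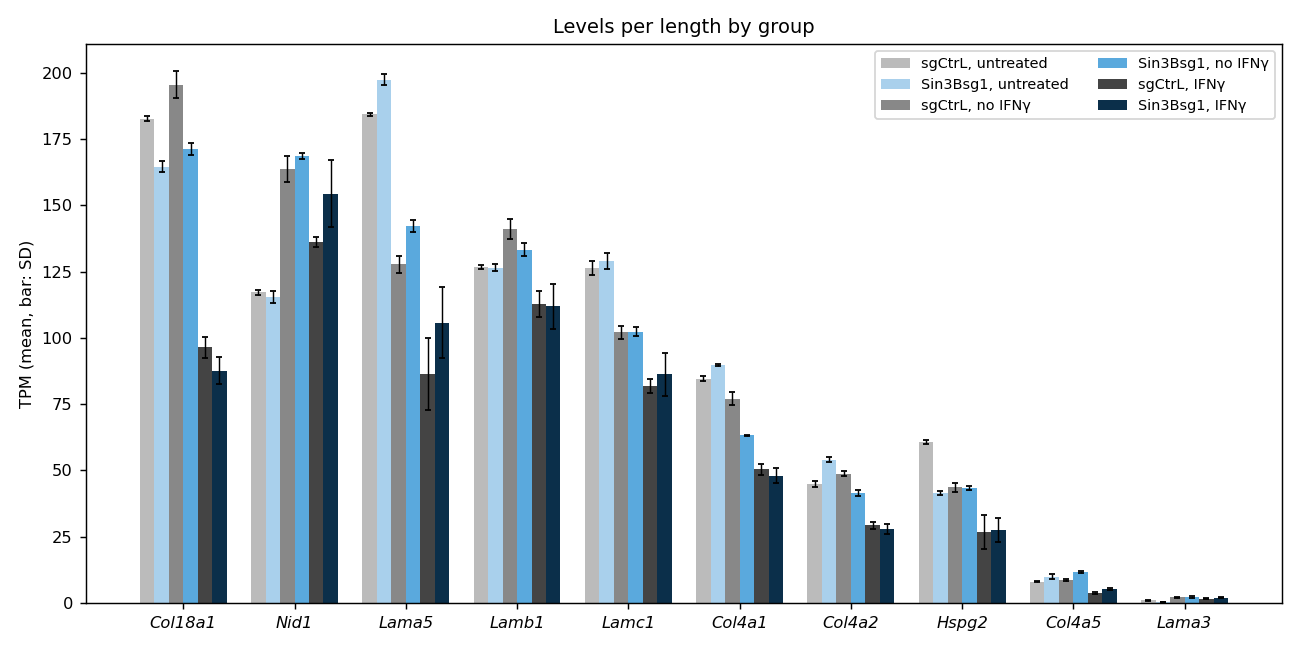
Mean level per length (TPM, vertical axis, bars with SD) of the 10 genes, ordered by their mean over groups, in the 6 groups (n = 2 in the untreated experiment and n = 3 in the IFNγ experiment). Col18a1 fell from 196 TPM without IFNγ to 96.4 TPM with IFNγ in sgCtrL, while Lama3 stayed at or below 2.22 TPM in every group.

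The loss of Sin3B was compared with the control 3 times, to ask which matrix genes it altered in the tumor cells alone. In untreated cells 7 of the 10 genes passed the threshold of 0.05 on the adjusted p (edgeR quasi-likelihood test), 4 of them higher in Sin3Bsg1 (Col4a1, Col4a2, Col4a5 and Lama5) and 3 lower (Lama3, Hspg2 and Col18a1). Over all 14589 genes tested 31.1% passed, 15.1% higher and 16.0% lower. Without IFNγ in the other experiment Col4a5 was higher and Col4a1, Col4a2 and Col18a1 were lower, 4 of 10 beside 17.2% of 14913 genes tested (7.89% higher and 9.33% lower). With IFNγ Col4a5, Lama5 and Nid1 were higher and Col18a1 was lower, again 4 of 10, beside 16.5% of all genes (8.62% higher and 7.90% lower). The groups did not overlap for 8 of 10 members in the untreated experiment, 4 above and 4 below (63.3% of all genes, 31.9% above and 31.4% below), for 6 of 10 without IFNγ, 2 above and 4 below (39.2%, 18.3% above and 20.9% below), and for 4 of 10 with IFNγ, 3 above and 1 below (30.4%, 15.4% above and 14.9% below). The median log2 fold change of the 10 genes was 0.015 untreated, -0.022 without IFNγ and 0.051 with IFNγ, where that of all genes was 0.0024, -0.0090 and 0.0036. Col4a5 and Col18a1 were the members that passed the test in the same direction in all 3 comparisons. The summed level of the 6 ductal markers moved too, from 4599.6 to 4625 CPM in untreated sgCtrL against 6195 to 6253 CPM in untreated Sin3Bsg1, from 2990 to 3028 against 3215 to 3317 CPM without IFNγ, and from 3165 to 3692 against 4181 to 4433 CPM with IFNγ, and its part in these counts was not tested.

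The response to IFNγ was compared in each genotype, and the members that passed the test in it all fell. In sgCtrL cells 9 of 10 genes fell, all but Lama3, and in Sin3Bsg1 cells 8 of 10 fell, all but Lama3 and Nid1, and none rose in either. Lower calls made up 14.5% of all genes tested in sgCtrL (30.2% in either direction) and 12.3% in Sin3Bsg1 (28.4% in either direction). The groups with and without IFNγ did not overlap for the same numbers of members, 9 below in sgCtrL (41.5% of all genes, 20.7% below) and 8 below in Sin3Bsg1 (45.4%, 21.1% below). The median log2 fold change of the 10 genes was -0.51 in sgCtrL and -0.32 in Sin3Bsg1, beside -0.00062 and 0.0052 over all genes. The members are long genes, and outside of them the 1798 genes at least as long as the shortest member had a median of -0.074 in sgCtrL, with 25.9% of them lower, and of -0.039 in Sin3Bsg1, with 20.2% lower. For the 265 genes of at least 10000 bases these medians were -0.17 and -0.082, and the part of gene length in the result was not tested. In bulk RNA fewer cells and less RNA per cell cannot be told apart.

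**Figure D2:**
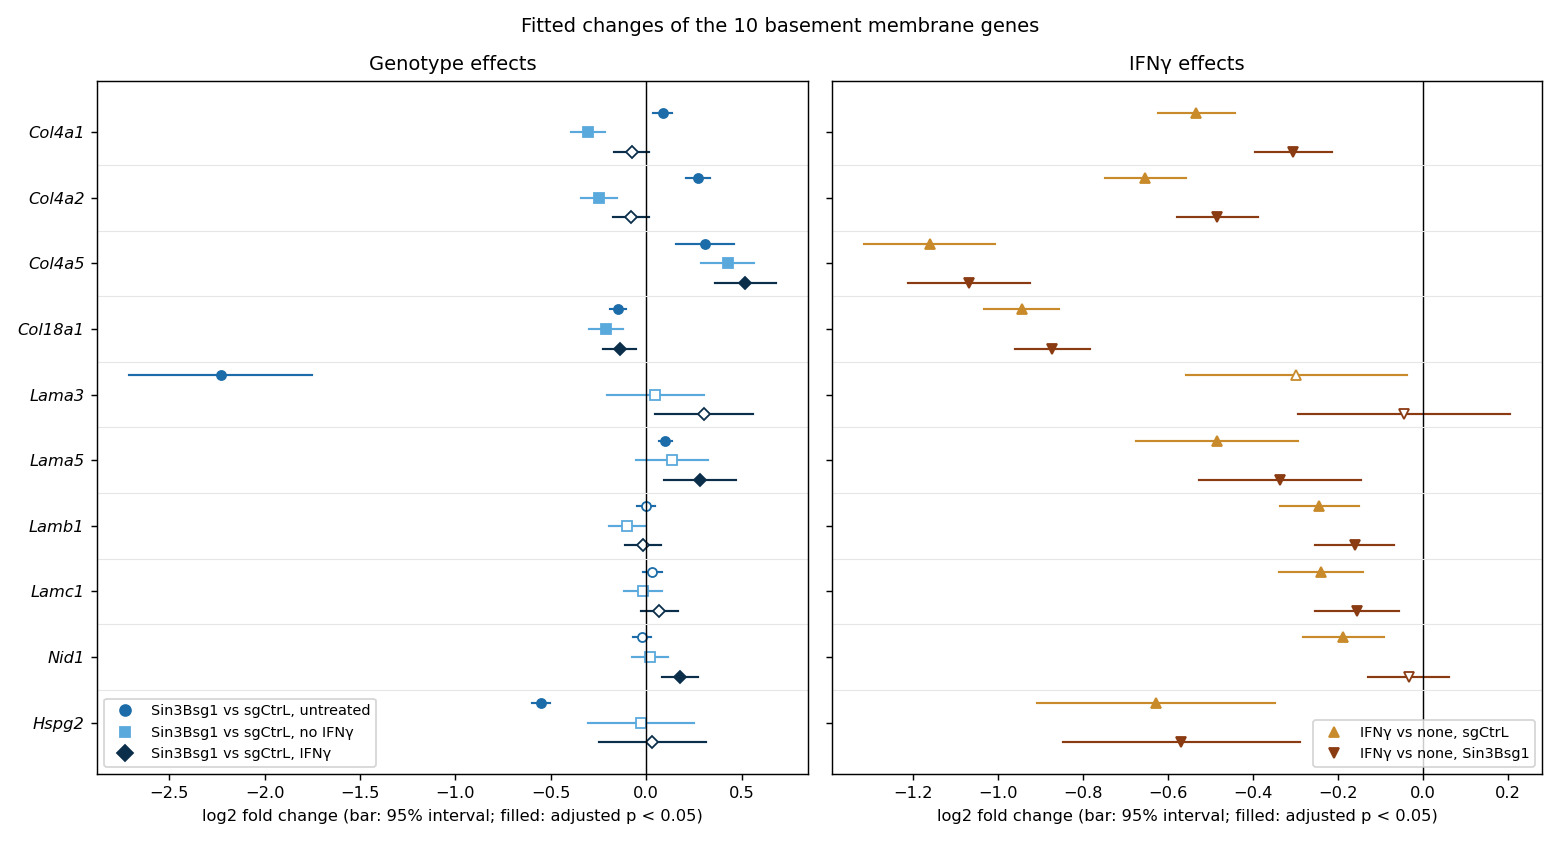
Fitted log2 fold changes (horizontal axis) with 95% intervals for the 10 genes, with genotype effects in the left panel and IFNγ effects in the right panel, where filled symbols passed the threshold of 0.05 on the adjusted p. Symbols scatter on both sides of 0 on the left, with Lama3 at -2.23 in the untreated experiment, whereas those on the right lie below 0 from -0.034 for Nid1 to -1.16 for Col4a5.

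Col4a1 and Col4a2 encode the chains of the ubiquitous collagen IV trimer. In the untreated experiment Col4a1 was at 270.1 and 275 CPM in sgCtrL and at 291 and 288 CPM in Sin3Bsg1, and Col4a2 was at 143 and 139 CPM against 168 and 172 CPM. Every Sin3Bsg1 library was above every sgCtrL library for both genes. The log2 fold changes were 0.087 (SE 0.024, edgeR adjusted p = 0.0101) and 0.27 (SE 0.030, adjusted p = 2.99e-06), and that of Col4a1 was 0.073 without sgCtrL replicate 1 (adjusted p = 0.0945). In the IFNγ experiment the order was the opposite. Without IFNγ Col4a1 was at 236, 227 and 236 CPM in sgCtrL and at 189, 189 and 187 CPM in Sin3Bsg1, and Col4a2 was at 144, 142 and 145 CPM against 118, 122 and 123 CPM, so that every Sin3Bsg1 library was below every sgCtrL library. The fitted changes were -0.31 (SE 0.042, edgeR adjusted p = 8.86e-05) and -0.25 (SE 0.044, adjusted p = 0.000919). The difference of the genotype effect between the experiments, tested in 1 fit of the 10 libraries without IFNγ, was 0.38 for Col4a1 (SE 0.042, edgeR adjusted p = 2.11e-06) and 0.51 for Col4a2 (SE 0.048, adjusted p = 2.52e-07), both above in the untreated experiment.

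With IFNγ the same chains were close between genotypes. Col4a1 was at 166, 156 and 161 CPM in sgCtrL and at 157, 150.2 and 149.9 CPM in Sin3Bsg1, and the groups overlapped. Its log2 difference was -0.077 (95% interval -0.17 to 0.014), and that of Col4a2 was -0.080 (-0.18 to 0.016), neither past the threshold. IFNγ lowered Col4a1 by 30.9% in sgCtrL (log2 fold change -0.53, SE 0.042, edgeR adjusted p = 8.05e-08) and by 19.1% in Sin3Bsg1 (-0.31, SE 0.042, adjusted p = 4.22e-05). Col4a2 fell by 36.4% and by 28.5%, and every library with IFNγ was below every library without it for both genes and genotypes. The ratio of Col4a1 to Col4a2 per length, from TPM, was 1.58 ± 0.0188 (SD, n = 3) in sgCtrL and 1.52 ± 0.0414 in Sin3Bsg1 without IFNγ, and 1.72 ± 0.0469 and 1.72 ± 0.0252 with IFNγ.

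Col4a5 encodes a chain of a second collagen IV network, best known from Alport syndrome. It was at 25.7 and 25.6 CPM in untreated sgCtrL and at 30.0 and 33.5 CPM in untreated Sin3Bsg1. Without IFNγ it was at 25.1, 25.2 and 26.5 CPM in sgCtrL and at 33.8, 34.6 and 34.9 CPM in Sin3Bsg1, and with IFNγ at 12.4, 10.6 and 11.5 CPM against 16.1, 17.5 and 15.6 CPM. Sin3Bsg1 lay above sgCtrL without overlap in all 3 comparisons. The log2 fold changes were 0.31 (SE 0.071, edgeR adjusted p = 0.00338), 0.43 (SE 0.066, adjusted p = 0.000246) and 0.52 (SE 0.074, adjusted p = 0.000124). IFNγ moved this member most, with a fall of 55.3% in sgCtrL (log2 fold change -1.16, SE 0.072, edgeR adjusted p = 3.85e-09) and of 52.3% in Sin3Bsg1 (-1.07, SE 0.067, adjusted p = 3.99e-09). Per length, Col4a5 stood at 9.52 ± 0.140% of Col4a1 in sgCtrL and at 11.1 ± 0.963% in Sin3Bsg1 in the untreated experiment (SD, n = 2), where Col4a1 was higher in Sin3Bsg1. The shares were 11.1 ± 0.302% and 18.5 ± 0.373% without IFNγ, where Col4a1 was lower in Sin3Bsg1, and 7.22 ± 0.348% and 10.9 ± 0.787% with IFNγ (SD, n = 3). Col4a6, its head-to-head neighbour whose start lies 1343 bases away, had at most 14 counts in any library and was not tested within either experiment.

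Col18a1, which encodes the chain of collagen XVIII, was lower in Sin3Bsg1 each time. It was at 496 and 501 CPM in untreated sgCtrL and at 446 and 452 CPM in untreated Sin3Bsg1, and without IFNγ at 493, 494 and 513 CPM against 432, 439 and 425 CPM. No library of one genotype reached the range of the other. The log2 fold changes were -0.15 (SE 0.020, edgeR adjusted p = 2.57e-05) and -0.21 (SE 0.041, adjusted p = 0.00182). With IFNγ the libraries were at 267, 253 and 259 CPM in sgCtrL and at 241, 236 and 229.9 CPM in Sin3Bsg1, with a change of -0.14 (SE 0.041, edgeR adjusted p = 0.0300) that rested on single libraries. It no longer passed without sgCtrL with IFNγ replicate 1 (-0.11, edgeR adjusted p = 0.0631) or 3 (0.0608), without Sin3Bsg1 with IFNγ replicate 2 (0.0791) or 3 (0.0866), without a filter on low counts (0.0966) or in the fit of these 6 libraries alone (0.127). IFNγ lowered Col18a1 by 48.0% in sgCtrL (-0.94, SE 0.041, edgeR adjusted p = 3.80e-11) and by 45.4% in Sin3Bsg1 (-0.87, SE 0.041, adjusted p = 9.75e-11). Its share of the summed TPM of the 10 genes went from 21.5 ± 0.513% to 15.4 ± 0.742% in sgCtrL (SD, n = 3).

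**Figure D3:**
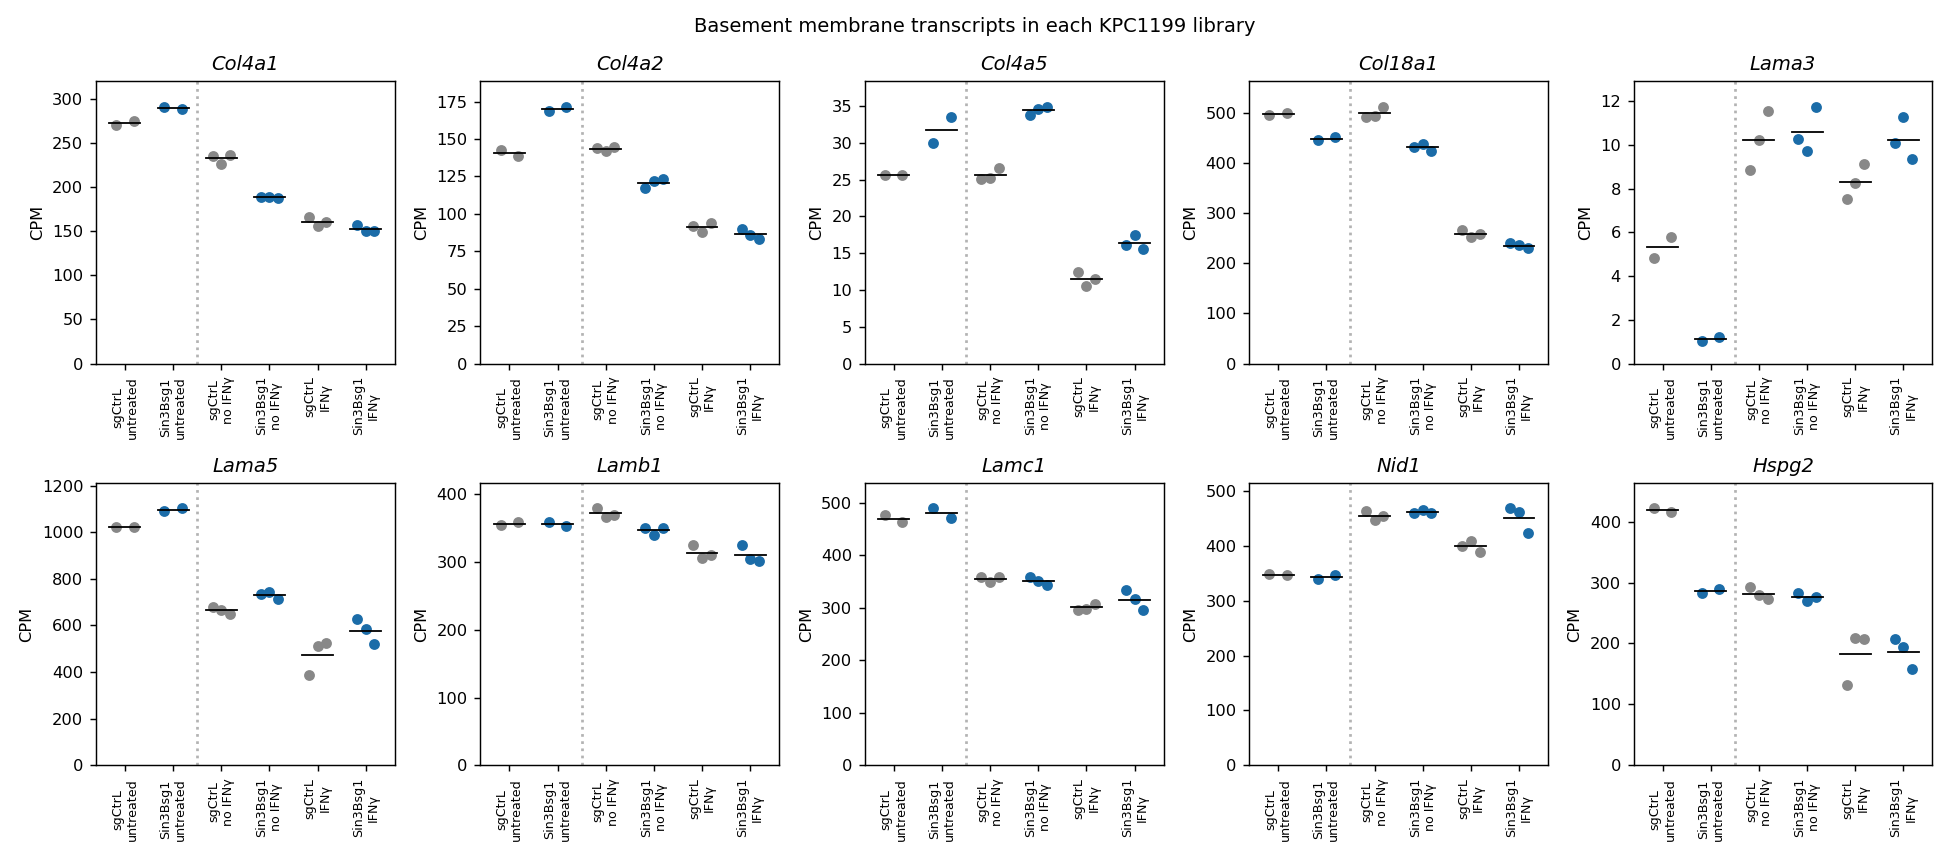
CPM (vertical axis from 0) of each gene in each of the 16 libraries, grey for sgCtrL and blue for Sin3Bsg1, with a bar at the group mean and a dotted line between the 2 experiments. For Hspg2 and Lama5 the lowest sgCtrL point with IFNγ (131 and 388 CPM) is replicate 1, apart from its replicates.

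Lama3 encodes the α chain of the laminin of epithelial anchoring complexes, which also holds the β chain of Lamb3. In the untreated experiment it was at 4.84 and 5.78 CPM in sgCtrL (144 and 170 counts) and at 1.03 and 1.23 CPM in Sin3Bsg1 (33 and 38 counts). Both edited libraries were far below both controls, and the fall was 78.7% (log2 fold change -2.23, SE 0.22, edgeR adjusted p = 1.07e-06). In the IFNγ experiment no such difference was seen without IFNγ, with 8.84, 10.2 and 11.6 CPM in sgCtrL and 10.2, 9.70 and 11.7 CPM in Sin3Bsg1, which overlapped (0.048, 95% interval -0.20 to 0.30). The genotype effect differed between the experiments by -2.29 (SE 0.24, edgeR adjusted p = 1.10e-06). With IFNγ the libraries were at 7.51, 8.27 and 9.10 CPM in sgCtrL and at 10.1, 11.3 and 9.36 CPM in Sin3Bsg1, above without overlap but not past the threshold (0.30, SE 0.12, edgeR adjusted p = 0.104). The log2 fold change of Lama3 with IFNγ against without was -0.30 in sgCtrL (SE 0.12, edgeR adjusted p = 0.0792) and -0.044 in Sin3Bsg1 (95% interval -0.29 to 0.20). The former was -0.39 with an edgeR adjusted p of 0.0398 when sgCtrL without IFNγ replicate 1 was left out.

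Lamb3, the β chain partner of Lama3, went the other way in the untreated experiment. Lamb3, which is not named by the rule because of its low level and was added after its values were seen, was at 3.02 and 2.72 CPM against 4.80 and 5.05 CPM in the untreated experiment. Its log2 fold changes were 0.78, 1.68 and 1.17 in the untreated experiment, without IFNγ and with IFNγ (edgeR adjusted p = 0.00339, 0.00121 and 0.0194). It was thus higher in Sin3Bsg1 where Lama3 was lower or not past the threshold. The changes in the IFNγ experiment rested on few counts. Without IFNγ there were 12, 11 and 17 in sgCtrL libraries and 55, 49 and 51 in Sin3Bsg1. With IFNγ there were 10, 19 and 11 against 40, 25 and 29. Per length, untreated Sin3Bsg1 cells had 2.08 ± 0.0847 TPM of Lamb3 and 0.220 ± 0.0288 TPM of Lama3 (SD, n = 2).

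Lama5, Lamb1 and Lamc1 encode the α, β and γ chains of the main laminin of adult epithelia. In the untreated experiment Lama5 was at 1024 and 1022 CPM in sgCtrL and at 1091 and 1102 CPM in Sin3Bsg1, a rise of 7.21% (log2 fold change 0.10, SE 0.016, edgeR adjusted p = 0.000173) without overlap. Without IFNγ it was at 678, 667 and 649 CPM against 733, 742 and 714 CPM, also without overlap but not past the threshold (0.14, SE 0.089, edgeR adjusted p = 0.349). That value was 0.15 with an adjusted p of 0.0419 when sgCtrL with IFNγ replicate 1, which is in neither group, was left out of the fit, an alternative chosen after seeing the data, and 0.14 with an edgeR adjusted p of 0.000457 in the fit of these 6 libraries alone. With IFNγ Lama5 was at 388, 513 and 524 CPM in sgCtrL and at 629, 585 and 519 CPM in Sin3Bsg1, and the groups overlapped, the highest sgCtrL library being above the lowest Sin3Bsg1 library. The change of 0.28 (SE 0.089, edgeR adjusted p = 0.0417) was 0.17 without sgCtrL with IFNγ replicate 1 (adjusted p = 0.0407) and 0.21 without Sin3Bsg1 with IFNγ replicate 1 (adjusted p = 0.193). It also missed the threshold without Sin3Bsg1 with IFNγ replicate 2 (edgeR adjusted p = 0.126), in the fit of these 6 libraries alone (0.166) and with a replicate block (0.0532).

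Lamb1 and Lamc1 did not pass the threshold in any genotype comparison. In the untreated experiment the 95% intervals of the log2 fold change were -0.049 to 0.045 for Lamb1 and -0.018 to 0.081 for Lamc1, around libraries at 355 and 359 CPM against 360.0 and 353 CPM and at 476 and 463 CPM against 489 and 471 CPM. Both genes overlapped between genotypes there. Without IFNγ Lamb1 was at 379, 367 and 369 CPM in sgCtrL and at 351, 339.9 and 350.3 CPM in Sin3Bsg1, below without overlap but not past the threshold (-0.10, 95% interval -0.19 to -0.0071, edgeR adjusted p = 0.138). It passed in the fit of these 6 libraries alone (-0.093, edgeR adjusted p = 0.0253). The interval of Lamc1 without IFNγ was -0.12 to 0.082, and with IFNγ the intervals were -0.11 to 0.076 for Lamb1 and -0.029 to 0.17 for Lamc1. IFNγ lowered all 3 chains in both genotypes, Lama5 by 28.5% in sgCtrL and by 20.8% in Sin3Bsg1, Lamb1 by 15.6% and by 10.5%, and Lamc1 by 15.4% and by 10.2%. Lamb1 with IFNγ was at 326, 306 and 311 CPM in sgCtrL, below all libraries without it (edgeR adjusted p = 0.000524). The fall of Lama5 in sgCtrL was 0.48 on the log2 scale, and without sgCtrL with IFNγ replicate 1 the change was -0.37 (edgeR adjusted p = 5.41e-05). For Lamc1 in Sin3Bsg1 the fall of 0.15 on the log2 scale (SE 0.046, edgeR adjusted p = 0.0203) no longer passed when Sin3Bsg1 with IFNγ replicate 3 (adjusted p = 0.0509) or Sin3Bsg1 without IFNγ replicate 1 (0.0853) or 2 (0.0591) was left out.

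Nid1, the linker between the laminin and collagen IV networks, was at 349.6 and 347 CPM in untreated sgCtrL and at 339 and 347 CPM in untreated Sin3Bsg1, a log2 difference of -0.022 (95% interval -0.070 to 0.026). Without IFNγ it was at 465, 447 and 455 CPM in sgCtrL and at 461, 465 and 460.3 CPM in Sin3Bsg1, and these overlapped. With IFNγ it was at 401, 409.5 and 389 CPM in sgCtrL and at 469, 462 and 424 CPM in Sin3Bsg1. Each Sin3Bsg1 library was then above each sgCtrL library, with a log2 fold change of 0.18 (SE 0.045, edgeR adjusted p = 0.0124), which was 0.14 without Sin3Bsg1 with IFNγ replicate 1 (adjusted p = 0.0609) and 0.16 without replicate 2 (adjusted p = 0.0647). In the fit of these 6 libraries alone it was 0.17 and did not pass either (edgeR adjusted p = 0.107). IFNγ lowered Nid1 by 12.2% in sgCtrL (edgeR adjusted p = 0.00466), and in Sin3Bsg1 the value was -2.32% and overlapped (adjusted p = 0.629).

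Hspg2 encodes perlecan, the heparan sulfate proteoglycan of the sheet. It was at 422 and 415 CPM in untreated sgCtrL and at 283 and 289 CPM in untreated Sin3Bsg1, a fall of 31.8% (log2 fold change -0.55, SE 0.023, edgeR adjusted p = 2.68e-11). The edited libraries were both below the controls, and Pdgfra and Pdgfrb fell in the same comparison by 1.78 and 1.14 on the log2 scale, while all 6 ductal markers rose, whose part in the result was not tested. Without IFNγ Hspg2 was at 293, 279 and 273 CPM in sgCtrL and at 283, 270.5 and 277 CPM in Sin3Bsg1, which overlapped (-0.027, 95% interval -0.30 to 0.25), and the difference of the genotype effect between experiments was -0.53 (SE 0.046, edgeR adjusted p = 9.00e-08). Summed fibroblast markers there were 261 to 268 CPM in sgCtrL and 223 to 234 CPM in Sin3Bsg1, with Pdgfra at -0.26 and Pdgfrb at 0.19 on the log2 scale. With IFNγ Hspg2 was at 131, 208 and 207 CPM in sgCtrL and at 208, 193 and 158 CPM in Sin3Bsg1, which overlapped (0.032, 95% interval -0.25 to 0.31). IFNγ lowered it by 35.3% in sgCtrL (-0.63, SE 0.13, edgeR adjusted p = 0.00184) and by 32.6% in Sin3Bsg1 (-0.57, SE 0.13, adjusted p = 0.00371), and the former was -0.45 without sgCtrL with IFNγ replicate 1 (adjusted p = 0.000145).

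Whether the response to IFNγ depended on Sin3B was tested by the interaction. None of the 10 genes passed (edgeR quasi-likelihood test), 3 had an unadjusted p under 0.05 (Col4a1, Col4a2 and Nid1), DESeq2 called none, and over all genes 0.114% passed, or 17 of 14913 (0.0805% above and 0.0335% below 0). All 10 estimates were above 0, from 0.059 for Hspg2 (95% interval -0.33 to 0.45) to 0.25 for Lama3 (-0.11 to 0.61), and that of Col4a1 was 0.23 (0.10 to 0.36, edgeR adjusted p = 0.381). Their median was 0.12, beside 0.014 over all genes, 0.037 over genes outside the members that are at least as long as the shortest member and 0.071 over those of at least 10000 bases. The estimate of Hspg2 was -0.13 without sgCtrL with IFNγ replicate 1 and -0.051 without Sin3Bsg1 with IFNγ replicate 1. Between the experiments, by contrast, the genotype effect differed past the threshold for 4 of the 10 genes, Col4a1, Col4a2, Lama3 and Hspg2, beside 13.6% of 15264 genes tested (6.80% in each direction). Col4a5 (-0.13, 95% interval -0.32 to 0.059) and Col18a1 (0.053, -0.027 to 0.13) did not pass. The experiments differ in their table, their libraries and possibly in culture, which cannot be told apart.

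Other basement membrane components were counted from a list of 27 genes, of which 14 could be tested in untreated cells and 17 in those of the IFNγ experiment. In Sin3Bsg1 3 were higher and 6 lower untreated, 5 higher and 2 lower without IFNγ, and 5 higher and 6 lower with IFNγ. Over all genes tested 15.1% were higher and 16.0% lower untreated, 7.89% and 9.33% without IFNγ, and 8.62% and 7.90% with IFNγ. Fbln1 (fibulin 1) fell by 0.98, 0.71 and 0.73 on the log2 scale in these comparisons (edgeR adjusted p at most 9.30e-06), and its untreated libraries were at 167 and 166 CPM in sgCtrL against 84.8 and 84.7 CPM in Sin3Bsg1. Sparc, which binds collagen IV and assists its deposition, fell by 0.77, 0.27 and 0.31 (edgeR adjusted p at most 0.000123). Fbln2 fell by 0.68 untreated but rose by 0.39 without IFNγ and by 0.66 with IFNγ, a difference between experiments of -1.08 (SE 0.062, edgeR adjusted p = 2.33e-10). Smoc1, a matricellular protein, rose by 0.45 without IFNγ (edgeR adjusted p = 0.000849), and Tinagl1 was higher by 0.43 in Sin3Bsg1 than in sgCtrL with IFNγ (edgeR adjusted p = 1.67e-05). With IFNγ, 3 were higher and 6 lower in sgCtrL and 4 higher and 6 lower in Sin3Bsg1. The shares of all genes were 15.7% higher and 14.5% lower in sgCtrL and 16.1% and 12.3% in Sin3Bsg1. Among the lower ones in both were Lamb2 with -0.37 and -0.31 and Npnt, an integrin ligand, with -0.32 and -0.41. Higher in both were Tinagl1, the collagen IV chain gene Col4a4 and the laminin chain gene Lama4. Col4a4 and Lama4 lay below the level set for named genes, with at most 108 and 40 counts in a library. The median log2 fold change of the list was -0.17, -0.066 and 0.17 for genotype and -0.28 and -0.24 for IFNγ.

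Receptors were counted from a list of 13 genes, all tested. In Sin3Bsg1 7 were higher and 4 lower untreated, 4 higher and 1 lower without IFNγ, and 5 higher and 1 lower with IFNγ. The 4 that were lower untreated, listed here outside the rule for named genes, were Cd151, Dag1, Itga3 and Sdc1. Of all genes 15.1% were higher and 16.0% lower untreated, 7.89% and 9.33% without IFNγ, and 8.62% and 7.90% with IFNγ. Itgb4, the integrin chain of hemidesmosomes that binds the laminin of Lama3, rose by 0.80, 0.74 and 0.62 on the log2 scale (edgeR adjusted p at most 1.30e-05), from 153 and 153 CPM to 264 and 270.0 CPM in the untreated experiment. Itga7, a laminin receptor chain, rose by 0.79, 0.86 and 0.61. The collagen receptor chains Itga1 and Itga2 rose by 1.87 and 1.07 untreated (edgeR adjusted p at most 7.74e-09) and were at -0.077 and 0.088 without IFNγ, with differences between experiments of 1.94 and 0.98 that passed the threshold. Sdc4, a heparan sulfate proteoglycan of the cell surface, rose by 0.21 untreated and fell by 0.27 without and by 0.33 with IFNγ. IFNγ lowered 8 of 13 in sgCtrL and 7 of 13 in Sin3Bsg1 and raised 2 in each. Of all genes it lowered 14.5% in sgCtrL and 12.3% in Sin3Bsg1 and raised 15.7% and 16.1%. The largest falls were those of Itga7 (-1.02 and -1.27), Bcam (-0.74 and -0.57) and Itgb4 (-0.60 and -0.72). The receptors had a median of 0.21, 0.088 and 0.10 for genotype and of -0.19 and -0.15 for IFNγ.

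Genes for biosynthesis and cross-linking of collagen IV and laminin were counted from a list of 16, all tested. In Sin3Bsg1 2 were higher and 9 lower untreated, 3 higher and 2 lower without IFNγ, and 2 higher and 2 lower with IFNγ. The shares of all genes were 15.1% higher and 16.0% lower untreated, 7.89% and 9.33% without IFNγ, and 8.62% and 7.90% with IFNγ. Pxdn, the peroxidasin that forms the sulfilimine bonds of collagen IV, was at 146 and 143 CPM in untreated sgCtrL and at 62.7 and 63.8 CPM in untreated Sin3Bsg1. It fell by 1.19, 0.46 and 0.38 on the log2 scale in the 3 genotype comparisons (edgeR adjusted p at most 0.000124) and with IFNγ by 0.45 in sgCtrL and 0.37 in Sin3Bsg1. Serpinh1, the collagen chaperone, fell with IFNγ by 0.42 and 0.35. Tgm2, a transglutaminase that cross-links matrix proteins, was the only gene of the 4 lists that passed the interaction test. It rose with IFNγ by 2.31 in sgCtrL and by 1.75 in Sin3Bsg1, a difference of -0.56 (SE 0.085, edgeR adjusted p = 0.0203). Its level without IFNγ was 95.8, 94.5 and 89.6 CPM in sgCtrL and 151, 153 and 149 CPM in Sin3Bsg1. With IFNγ it was at 514, 432 and 439 CPM in sgCtrL and at 522, 510 and 489 CPM in Sin3Bsg1. These overlapped only through sgCtrL replicate 1, the library that stood furthest from its replicates. Without that library the interaction was -0.47 (edgeR adjusted p = 0.000471). The interaction kept its direction in every alternative. It missed the threshold without any 1 of the 6 libraries without IFNγ or without Sin3Bsg1 with IFNγ replicate 2 (edgeR adjusted p from 0.0515 to 0.109). The list had a median log2 fold change of -0.22, -0.032 and 0.039 for genotype and of -0.083 and -0.050 for IFNγ.

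Proteases and their inhibitors were counted from a list of 17 genes, of which 14 were tested. In Sin3Bsg1 1 was higher and 8 lower untreated, 2 higher and 5 lower without IFNγ, and 1 higher and 5 lower with IFNγ. Over all genes 15.1% were higher and 16.0% lower untreated, 7.89% and 9.33% without IFNγ, and 8.62% and 7.90% with IFNγ. Mmp3 (stromelysin 1), which degrades laminin and nidogen, fell by 1.76, 1.31 and 1.13 on the log2 scale (edgeR adjusted p at most 0.000145) and with IFNγ by 1.31 in sgCtrL and 1.14 in Sin3Bsg1. Timp3, a matrix-bound inhibitor, fell by 0.53, 0.29 and 0.15 with the loss of Sin3B and rose with IFNγ by 0.57 and 0.71. Adamts1 rose with IFNγ by 1.17 in sgCtrL and by 1.29 in Sin3Bsg1 (edgeR adjusted p at most 2.53e-12). Plau, the urokinase gene, fell by 0.47 untreated and rose by 0.62 without IFNγ, with a difference between experiments of -1.10 (SE 0.11, edgeR adjusted p = 4.71e-07). IFNγ raised 5 and lowered 8 of 14 in sgCtrL and raised 5 and lowered 7 in Sin3Bsg1. Of all genes it raised 15.7% and lowered 14.5% in sgCtrL and raised 16.1% and lowered 12.3% in Sin3Bsg1. Medians were -0.16, -0.11 and -0.050 for genotype and -0.25 and -0.21 for IFNγ, beside medians of all genes between -0.0090 and 0.0052.

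**Figure D4:**
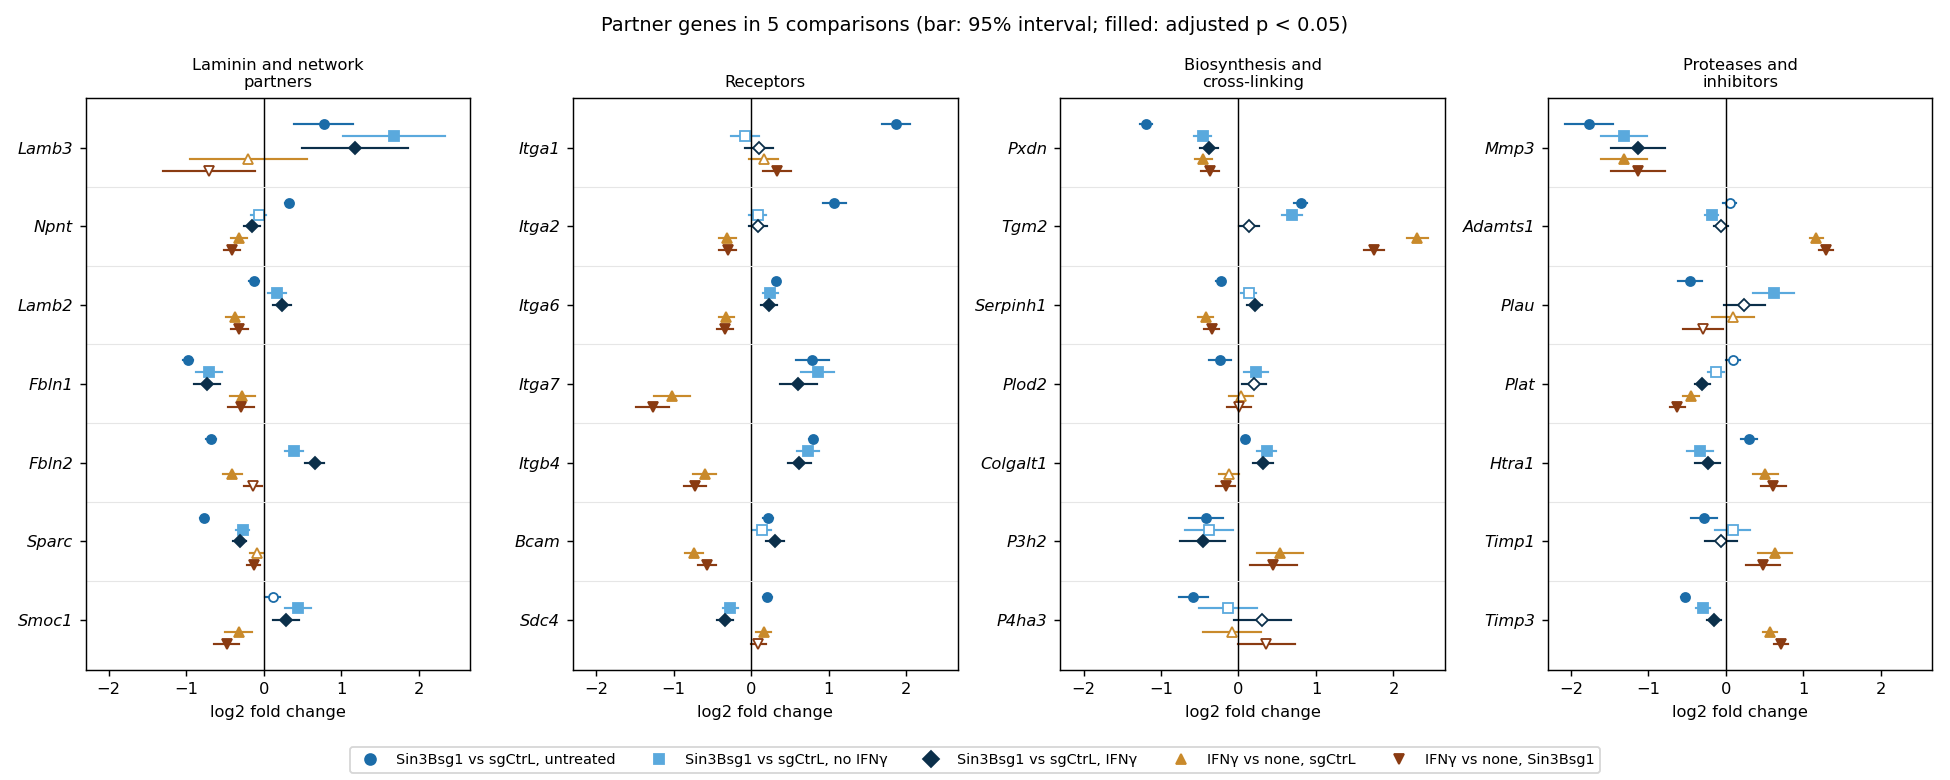
Fitted log2 fold changes (horizontal axis) with 95% intervals for 28 genes of the 4 lists in the 3 genotype and 2 IFNγ comparisons, where filled symbols passed the threshold of 0.05 on the adjusted p. The genes drawn are a selection made without a rule. The 7 receptors drawn are those called higher in untreated Sin3Bsg1, and the 4 called lower there (Cd151, Dag1, Itga3 and Sdc1) are not drawn. Lamb3 and Itgb4 lie above 0 and Pxdn, Fbln1 and Mmp3 below 0 in all 3 genotype comparisons, while Itga1 and Itga2 lie above 0 past the threshold only in the untreated one.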

How the data were processed

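RNA-seq of 16 KPC1199 libraries was analysed from 2 tables, each deposited by the authors with estimated counts per gene (not normalized, with 14.2% of the values not whole for untreated cells and 9.44% in the IFNγ experiment) beside group means, lengths and annotation, and of these the lengths were used too. Per the labels, fastp, HISAT2, StringTie and DESeq2 were used with mm39, whereas the methods of the study name mm9 and featureCounts, and versions are not given in the sources used here. Control columns named for a lacZ guide were taken as sgCtrL, since the Sin3B guide is the only other one there. Counts were rounded, and 324 assembled loci without a name (0.615 to 0.677% of the counts of an untreated library) were left out. No per-sample column was left unmapped. Whether strand was used in counting is not stated, so that reads of overlapping neighbours, Col4a1 and Col4a2 included, may not be told apart.

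CPM, TPM and the fits were computed here with edgeR 4.0.16 in R 4.3.3 (TMM, filterByExpr, quasi-likelihood test, two-sided, Benjamini-Hochberg over all genes tested, threshold 0.05). The untreated experiment was fitted on 4 libraries and the IFNγ experiment on 12, with a mean per group. The difference of the genotype effect between experiments was fitted on the 10 libraries without IFNγ, also with a mean per group. The biological coefficient of variation was 2.84%, 6.78% and 3.53% in these fits. SE is the absolute log2 fold change over the root of F, and intervals are 95% intervals. DESeq2 1.42.0, RLE size factors, other filters, a replicate block, fits on fewer libraries and leaving out each library were alternatives, and the steps were first tested on simulated data. From each list at most the 3 genes with the largest change past the threshold and a mean of at least 5 CPM were named per comparison, and values of a gene so named are given in other comparisons too. In the list of other components 1 gene is not reported here and was left out of the counts. The members and lists were chosen with earlier results of these data known. Floors are 3 counts and cover counting error only. Python 3.11.15 was used for tables and figures, with pandas 2.3.3, numpy 2.4.6 and, for drawing, matplotlib 3.10.9. Gene coordinates are from GENCODE for GRCm39.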

Additional observations from a re-analysis of the deposited data

Results flagged for a closer look

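The genotype effect differed between the untreated experiment and the cells without IFNγ of the other experiment, by a test of the difference itself, for 4 of the 10 members. The differences, untreated minus without IFNγ on the log2 scale, were 0.38 for Col4a1, 0.51 for Col4a2, -2.29 for Lama3 and -0.53 for Hspg2 (edgeR adjusted p at most 2.11e-06). Each kept its direction and passed the threshold when any 1 library was left out, with ranges of 0.38 to 0.40, 0.49 to 0.54, -2.42 to -2.15 and -0.56 to -0.50. Among the 59 genes of the 4 lists that could be tested, the same test separated 30, 8 above and 22 below 0, beside 13.6% of all genes. Those with the largest differences, at most 3 from each list by the rule for named genes, were Bmp1 (-0.42), Fbln2 (-1.08), Htra1 (0.63), Itga1 (1.94), Itga2 (0.98), Npnt (0.39), Plau (-1.10), Plod2 (-0.47), Pxdn (-0.74), Sdc4 (0.47), Serpinh1 (-0.37) and Sparc (-0.51). In the same fit the fibroblast markers Pdgfra and Pdgfrb differed by -1.53 and -1.34. Of the 6 ductal markers 5 (Cdh1, Krt7, Krt8, Krt18 and Krt19) passed above 0, and the median of the 6 was 0.23. The part of these markers in the differences of the members and lists was not tested. Tgm2 was separated by the response to IFNγ, with an interaction of -0.56.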

How the results depend on the processing

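When 1 library was left out, 493 values of the members kept direction and side of the threshold, 12 no longer passed, 2 newly passed and 13 turned sign, and under the other alternatives 383 kept both, 5 no longer passed and 2 newly passed. The genes past the threshold numbered 3996 without IFNγ and 1500 with IFNγ when only the 6 libraries compared were fitted (2568 and 2464 in the fit of all 12), and 1 member then passed with IFNγ, where leaving out 1 library gave 1 to 4. Genes called by the interaction with IFNγ numbered 110 without a filter, 32 by DESeq2 and 1 to 33 without 1 library. Leaving out 1 library turned the sign of values that did not pass the threshold, with ranges of -0.0141 to 0.0123 for Lamb1 in untreated cells, -0.0404 to 0.143 for Lama3, -0.0322 to 0.000181 for Lamc1 and -0.0489 to 0.00254 for Hspg2 without IFNγ, -0.0558 to 0.0233 for Lamb1 and -0.142 to 0.140 for Hspg2 with IFNγ, -0.143 to 0.0375 for the IFNγ effect on Lama3 in Sin3Bsg1, and -0.125 to 0.160 for the interaction of Hspg2. The cause was not tested. Deviations from the group mean in like-numbered libraries of different groups had correlations from -0.170 to 0.248. Whether replicate numbers pair the libraries was not tested. With a replicate block, genes past the threshold numbered 4675, 2511 and 2389 for genotype and 4400 and 4207 for IFNγ, and of the members Lama5 with IFNγ was lost (0.28, edgeR adjusted p = 0.0532). Lama3 rested on 33 to 170 counts in untreated libraries.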

Other observations

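Over the 12 libraries of the IFNγ experiment, the genes whose log2 CPM was most like that of Col4a1, among 10493 genes, were Epn2, Ltbp1 (a binding protein of latent TGFβ), Alcam, Lgr6 and Scd2, with Pearson correlations from 0.981 to 0.985. Col4a1 and Col4a2 themselves had a correlation of 0.981. The genes most like Col18a1 were Ace, Antxr1, B4galt6, Slc22a23 and Abca8a (0.991 to 0.998), and those most like Lama3 were Gcc1, Nr6a1, Brpf3, Zfp780b and Gm21926 (0.847 to 0.857). All of these points share the same libraries and their depth, and the correlations are a description.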
